A study of Mus musculus with 12 samples.

Results

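The vas deferens of mice homozygous for a mutation of the Hoxa9, Hoxa10 and Hoxa11 block was compared with and without the loss of a single copy of the Hoxd9, Hoxd10 and Hoxd11 block. The comparison is the duct of Hoxa9,10,11-/-d9,10,11+/- mice (written Hoxa-/-Hoxd+/- from here on) minus that of Hoxa9,10,11-/- mice (Hoxa-/-), on a log2 scale, matched gene by gene. Genes differing by at least 1 log2 unit, that is at least 2-fold, in either direction were taken, and 2364 of the 31669 genes listed did so: 1859 were higher and 505 lower in the Hoxa-/-Hoxd+/- library. That was 9.6% higher and 2.61% lower of the 19368 genes whose values were not the same in all 6 male libraries. Where a gene's level could be read from the deposited values, at least 20 normalised reads in the higher of the 2 libraries were required for it to count as measured, and genes whose level could not be read were kept. A normalised read is a read on the scale of the deposited values, and how the authors normalised them is not described. The floor of 1, below which that scale does not go, was inferred from the values. So 1302 members passed, 1071 of them higher and 231 lower, and 258 and 91 of these had an unread level.

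Each library was made from RNA pooled from 3 animals aged 3 to 7 months on a CD1/129 background, and each genotype has 1 library, so no difference here has a replicate check and no test was possible. The other male libraries were the WT vas deferens, the vas deferens of Hoxd9,10,11-/- mice (Hoxd-/-), that of Hoxa9,10,11+/-d9,10,11-/- mice (Hoxa+/-Hoxd-/-) and the WT epididymis. The Hoxa-/-, Hoxd-/- and Hoxa-/-Hoxd+/- vas deferens were sequenced in lane 2 of run 134, the WT vas deferens in lane 1 of that run, and the Hoxa+/-Hoxd-/- vas deferens and the epididymis in lanes 7 and 1 of run 136. The labels do not say what kind of alleles these were. The series was collected to describe the molecular changes that follow mutation of these Hox blocks.

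The vas deferens is a duct with a thick smooth muscle wall and a pseudostratified epithelium of principal and basal cells, and it carries sperm from the epididymis towards the urethra. The posterior Hox genes give the ducts of the reproductive tract their identity along the body axis, and loss of Hoxa10 or Hoxa11 is known to give the mouse vas deferens features of the epididymis. Sperm arrive in the duct after meiosis and the haploid phase in the testis, during which germ cells transcribe genes for the synaptonemal complex, the acrosome, the flagellum and the small basic proteins that replace histones. Much of that programme uses transcripts that the duct wall itself is not known to make.

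Among the male libraries the relative depth ran from 1 in the epididymis to 1.92 in the WT vas deferens, with 1.47 in the Hoxa-/- and 1.53 in the Hoxa-/-Hoxd+/- library. The duct's own markers were present. Of 20 smooth muscle contractile genes, 1 was higher and 0 lower in the Hoxa-/-Hoxd+/- library, with a median difference of -0.12, and both Hoxa-/- libraries stood below WT, with list medians of -1.11 and -1.15. Of 25 genes of ductal and basal epithelium, 2 were higher and 0 lower, with a median of -0.15. Over all genes 9.6% were higher and 2.61% lower. The smooth muscle actin gene Acta2 differed by -0.06, the muscle myosin gene Myh11 by 0.28, the epithelial adhesion gene Epcam by -0.21 and the basal cell regulator Trp63 by 0.25. In bulk tissue, fewer cells of a type and less RNA per cell cannot be told apart.

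The 2 directions were very unequal. Of the 15820 genes measured, 6.77% were higher and 1.46% lower in the Hoxa-/-Hoxd+/- library, while 12905 lay within 0.5 log2 units of each other and the median difference was -0.00300. The asymmetry grew with the size of the difference. At 2 log2 units or more 639 genes were higher and 35 lower, at 3 or more 313 and 9, and at 4 or more 86 and 6. The median was 2.36 among the 1071 higher genes and -1.27 among the 231 lower genes. Close to the threshold both sides were evenly filled. Between 1 and 1.1 there were 92 higher genes against 103 between 0.9 and 1, and on the lower side there were 46 against 39. Of the higher genes, 477 reached the minimum level only through the Hoxa-/-Hoxd+/- library, and of the lower genes 53 did so only through the Hoxa-/- library, so these had to differ. Predicted transcripts and genes without an assigned name made up 365 of the higher and 78 of the lower genes.

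Testis-type descriptions were found more often among the higher genes than among the lower ones. A description that names testis, sperm or meiosis belonged to 76 of the 1071 higher genes (7.10%), to 3 of the 231 lower genes (1.30%) and to 151 of all 15820 measured genes (0.954%). With no minimum level, 102 genes with such a description were higher and 6 lower of 201. Of the 42 gene lists, that of haploid spermatids had the largest share of higher members. Of 48 spermatid genes whose values differed between libraries, 39 were higher and 0 lower, beside 9.6% higher and 2.61% lower over all genes. Their median difference was 2.39, with an interquartile range of 1.49 to 2.89, beside a median of 0.01 over all genes. With genes at the floor of the scale set at 3 reads, the median was 2.41. Of 32 genes of meiotic and premeiotic germ cells, 18 were higher and 0 lower, with a median of 1.64, or 1.58 with floor genes at 3 reads. Counts for gene lists take no minimum level unless stated. After the minimum level 32 of 37 spermatid genes and 14 of 20 meiotic genes were higher, beside 6.77% of all measured genes. Shares after the minimum level, those of testis-type descriptions included, are not a like comparison. Of the 1071 higher genes, 477 reached the minimum only through the Hoxa-/-Hoxd+/- library, and 12755 measured genes had an unread level and faced no minimum.

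Across the other genotypes the median of the spermatid list stayed near WT. Relative to WT vas deferens the median spermatid gene stood at 0.05 in the Hoxa-/-, 1.95 in the Hoxa-/-Hoxd+/-, -0.45 in the Hoxd-/- and 0.27 in the Hoxa+/-Hoxd-/- library. In the WT epididymis it stood at 3.91. The meiotic list stood at 0.58, 2.40, 0.11, 0.12 and 1.99 in the same order. In the Hoxa-/-Hoxd+/- library the spermatid median was thus below that of the epididymis and the meiotic median above it. The level could be read in every male library for 11 spermatid genes only, which leaves out most of the list, Prm1 and Prm2 among them. For these 11 genes the summed level was 37.9 normalised reads in the WT, 61.2 in the Hoxa-/-, 12.9 in the Hoxd-/-, 534 in the Hoxa-/-Hoxd+/- and 45.1 in the Hoxa+/-Hoxd-/- vas deferens, and 908 in the epididymis. The 9 meiotic genes whose level could be read summed to 45.03, 11.1, 61.0, 72.5 and 52.2 normalised reads in those libraries and to 29.0 in the epididymis. Most of the WT sum came from Tex11, an X-linked meiotic gene, which had 36.6 normalised reads in WT, 1 in the Hoxa-/-, 45.3 in the Hoxd-/-, 1.77 in the Hoxa-/-Hoxd+/- and 38.8 in the Hoxa+/-Hoxd-/- vas deferens, and 1.35 in the epididymis.

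**Figure D1:**
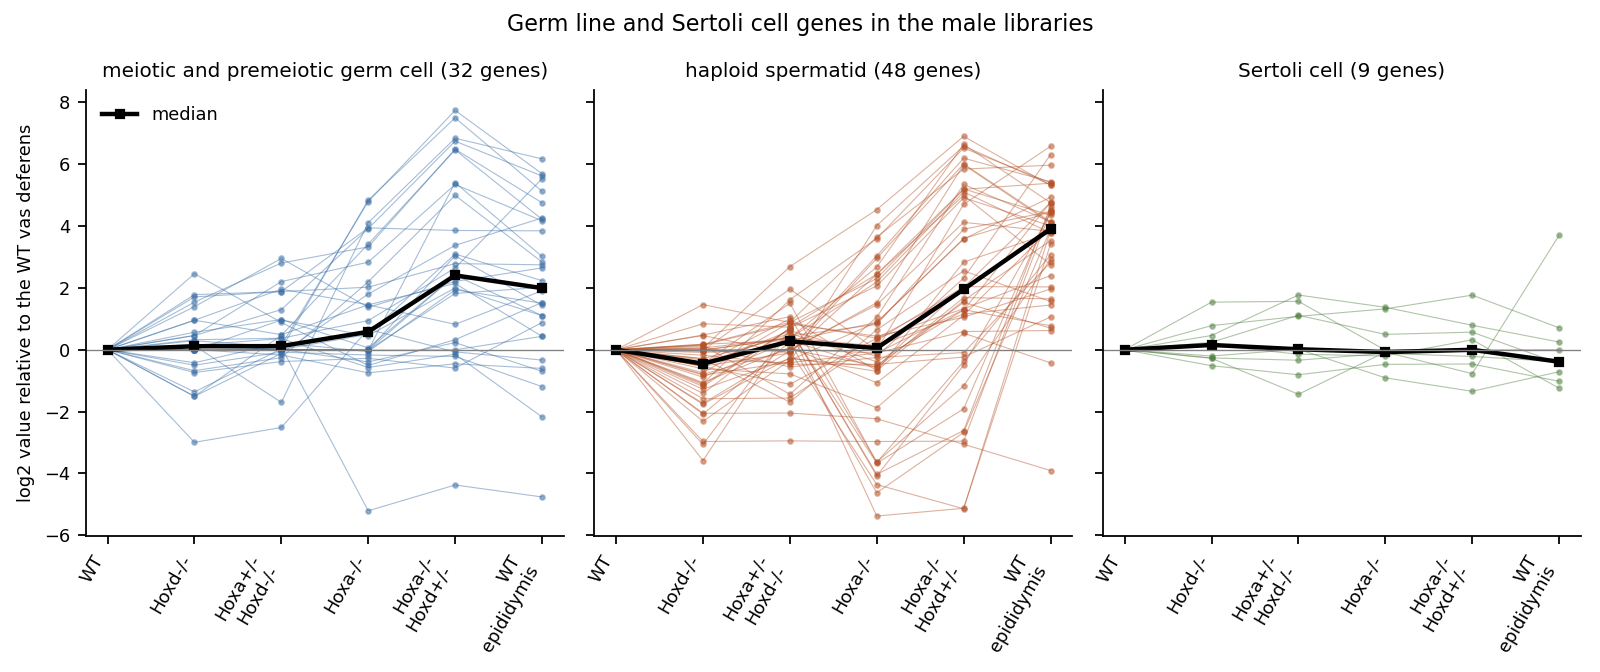
Meiotic, spermatid and Sertoli cell genes in the 6 male libraries, as log2 difference from the WT vas deferens on the vertical axis, with a thin line joining the values of each gene across libraries and a black line for the list median. The spermatid median is 1.95 in the Hoxa-/-Hoxd+/- vas deferens and 0.05 in the Hoxa-/-, against 3.91 in the WT epididymis, and the Sertoli cell medians stay near 0.

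The meiotic and early germ cell list had its largest difference in 1700007E06Rik, which had 42.4 normalised reads in the Hoxa-/-Hoxd+/- library, 1 in each of the other vasa deferentia and 8.10 in the epididymis. It was at least 15.4-fold higher than in the Hoxa-/- library, where it was at the floor. Several other members were above WT in the Hoxa-/- library as well. Mael, a gene of the piRNA pathway that silences transposons, stood at 4.79 above WT in the Hoxa-/-, 7.74 in the Hoxa-/-Hoxd+/-, 0.14 in the Hoxd-/-, 0.14 in the Hoxa+/-Hoxd-/- library and 5.69 in the epididymis. The germ cell RNA helicase gene Ddx4 stood at 3.42, 6.46, -1.51, 0.47 and 4.22 in the same order. Syce1, which encodes a central element of the synaptonemal complex, stood at 3.92, 6.75, 0.46, 1.30 and 5.62. In Mael, Ddx4 and Syce1 alike the Hoxa-/-Hoxd+/- vas deferens was the highest of the 6 libraries, the epididymis came next and the Hoxa-/- vas deferens after it. The differences between the compared libraries were 2.95 for Mael, 3.05 for Ddx4 and 2.83 for Syce1. The meiotic cohesin gene Smc1b had a difference of 3.16, the sperm-protein chaperone gene Clgn 2.66, the axial element gene Sycp2 2.51 and the fertilin beta gene Adam2 2.79. The list also held members within 0.5 log2 units of 0, among them Sycp3 at 0.43, Tex15 at 0.29 and Tdrd1 at -0.09, and its lowest member was Rec8, a meiotic cohesin gene, at -0.73. Stra8, which is needed for entry into meiosis, was at the floor of 1 normalised read in all 5 vasa deferentia and at 1.35 in the epididymis.

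Some spermatid genes had the same order, with the Hoxa-/-Hoxd+/- library highest, the epididymis next and the Hoxa-/- library after it. Acr, the gene for the acrosomal protease acrosin, stood at 2.96, 6.01, 0.46, -0.12 and 4.14 relative to WT in the Hoxa-/-, Hoxa-/-Hoxd+/-, Hoxd-/- and Hoxa+/-Hoxd-/- vas deferens and the epididymis. Pdha2, the testis form of a pyruvate dehydrogenase subunit gene, had 1 normalised read in WT, 6.45 in the Hoxa-/-, 1 in the Hoxd-/-, 99.9 in the Hoxa-/-Hoxd+/- and 1.29 in the Hoxa+/-Hoxd-/- vas deferens, and 27.0 in the epididymis. The 2 compared libraries held 7 and 113 reads of it, a difference of 3.97 with a 95% counting interval of 2.86 to 5.30. Such intervals are exact conditional binomial ones, cover counting error only and say nothing of variation between animals. The acrosomal gene Spaca3 had 1.03, 2.98, 1, 65.2, 1 and 17.6 normalised reads in WT, Hoxa-/-, Hoxd-/-, Hoxa-/-Hoxd+/-, Hoxa+/-Hoxd-/- and epididymis, a difference of 4.46 (interval 2.96 to 6.88). In Acr, Pdha2 and Spaca3 alike the Hoxa-/-Hoxd+/- library was the highest.

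Zpbp2, another acrosomal matrix gene, had 2.11, 25.8, 1, 195, 6.46 and 89.1 normalised reads in WT, Hoxa-/-, Hoxd-/-, Hoxa-/-Hoxd+/-, Hoxa+/-Hoxd-/- and epididymis. Ropn1, which encodes a sheath protein of the sperm tail, had 1, 8.29, 1, 73.4, 1 and 43.2 in that order. Their differences were 2.93 and 3.16, so the Hoxa-/- library held each above the WT duct as well. The protamine family gene Prm3 had 1, 1, 1, 26.1, 3.88 and 95.5 normalised reads. It was at least 9.45-fold higher in the Hoxa-/-Hoxd+/- than in the Hoxa-/- library, taking 3 reads per library as the limit that a count of 0 allows, and its highest level was in the epididymis. The spermatid linker histone gene Hils1 differed by 4.30.

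The genes for the last steps of sperm nuclear condensation did not follow that order. Prm1, the main protamine gene, stood at -4.36 in the Hoxa-/-, -5.14 in the Hoxa-/-Hoxd+/-, -1.74 in the Hoxd-/- and -0.04 in the Hoxa+/-Hoxd-/- vas deferens relative to WT, and at 3.85 in the epididymis. Prm2, its partner, stood at -5.38, -5.13, -1.13, 0.68 and 3.41. In both genes the 2 libraries homozygous for the Hoxa mutation were the lowest of the 6, and the differences between them were -0.78 and 0.25. The transition protein gene Tnp2 stood at -4.63 and -2.67 in the Hoxa-/- and Hoxa-/-Hoxd+/- library, and the spermatid maturation gene Spem1 at -3.67 and -1.91. Fscn3, a testis form of the actin-bundling protein fascin, was at 7.75 normalised reads in the WT vas deferens, at the floor of 1 in the other 4 vasa deferentia and at 174 in the epididymis.

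A further set lay between these patterns. Tnp1, which encodes the more abundant transition protein, stood at -4.08 in the Hoxa-/- and -0.50 in the Hoxa-/-Hoxd+/- library relative to WT, a difference of 3.58. The sperm mitochondrial capsule gene Smcp stood at -3.64 and -0.38, and the outer dense fibre gene Odf1 at -3.63 and -1.17. For these 3 genes the Hoxa-/- library was the lowest of the vasa deferentia by more than 2 log2 units and the Hoxa-/-Hoxd+/- library lay nearer to WT than the Hoxa-/- library did. Crem, the cyclic AMP responsive regulator of spermatid genes, differed by -0.82 and stood below WT in every other male library, from -2.05 in the Hoxa+/-Hoxd-/- vas deferens to -3.91 in the epididymis.

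The somatic cells of the testis were described by 2 short lists, to be read beside 9.6% higher and 2.61% lower over all genes. Of 9 Sertoli cell genes with differing values, 0 were higher and 0 lower, with a median difference of 0.01. Fshr, the follicle stimulating hormone receptor gene, differed by 0.52, and Sox9 by 0.07. Of 8 genes of Leydig cells and steroid synthesis, 2 were higher and 1 lower, with a median of 0.05. The steroid 17 alpha-hydroxylase gene Cyp17a1 differed by 3.01 and stood at 8.45 above the WT vas deferens in the epididymis, Insl3, a Leydig cell hormone gene, differed by 1.8 and the testosterone-forming enzyme gene Hsd17b3 by -1.51. The steroidogenic genes Hsd3b1 and Hsd3b6 were at one value in all 6 male libraries, and the luteinizing hormone receptor gene Lhcgr was at the floor in all but the Hoxa+/-Hoxd-/- library. What part germ cells or their remnants in the lumen had in the higher genes was not tested.

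Most of the higher genes were also higher in the WT epididymis than in the WT vas deferens. In the WT epididymis minus WT vas deferens, a comparison across runs that shares no library with the one described, 14.6% of the measured genes were at least 2-fold higher and 11.6% lower. Among the 1071 higher genes, 758 (70.8%) were higher in the epididymis and 79 (7.38%) lower, with a median of 2.74 against 0.0151 over all measured genes. These shares are not a like comparison. Of the 1071 genes, 477 reached the minimum level only through the Hoxa-/-Hoxd+/- library. A gene near the floor in the WT vas deferens can hardly be lower in the epididymis. The share was not computed for genes that reached the minimum in both libraries. In 332 of the 758 the Hoxa-/-Hoxd+/- vas deferens stood at least 1 log2 unit above the epididymis, in 126 at least 1 below it and in 300 within 1. The 231 lower genes had no such lean: 77 (33.3%) were lower in the epididymis, 56 (24.2%) were higher, and the median was -0.35.

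**Figure D2:**
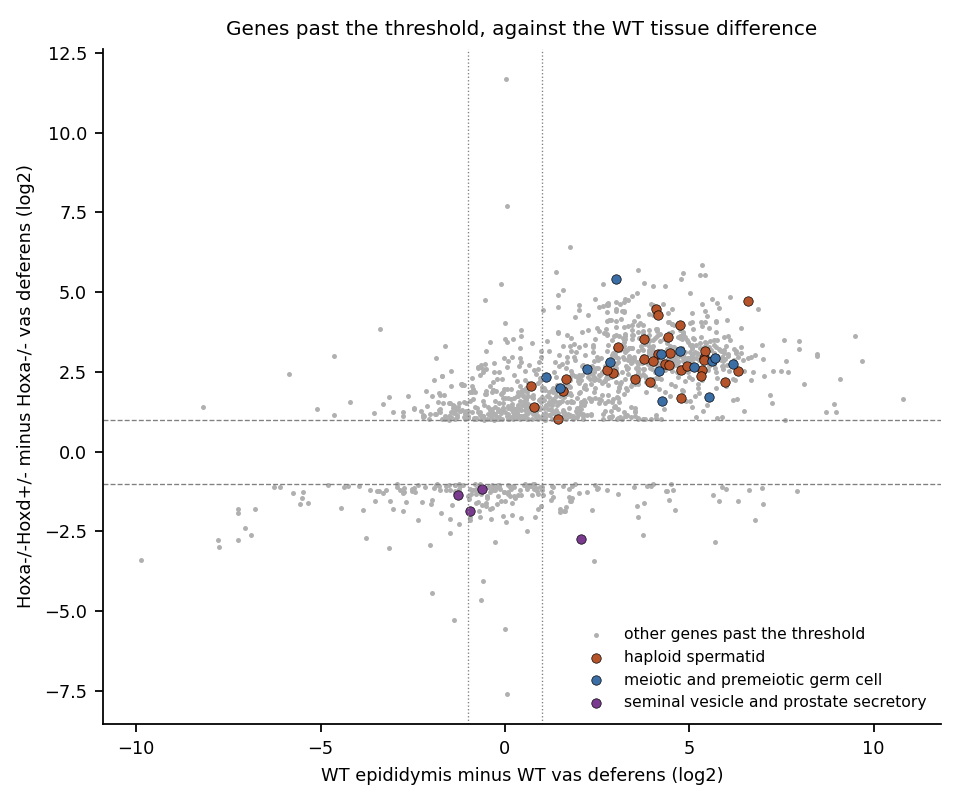
Measured genes that differed by at least 1 log2 unit, with the WT epididymis minus WT vas deferens difference on the horizontal axis and the Hoxa-/-Hoxd+/- minus Hoxa-/- vas deferens difference on the vertical axis, both in log2 units, 1 point per gene, coloured for 3 gene lists and with dashed and dotted lines at 1 and -1. Of the 1071 genes above the upper dashed line, 758 lie at 1 or more on the horizontal axis.

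Secreted products of the epididymal epithelium did not lean to the higher side with them. Of 29 epididymal secretory genes 1 was higher (3.45%) and 5 lower (17.2%), beside 9.6% and 2.61% over all genes. Their median difference was 0.01, although the list stood at 1.82 above WT in the Hoxa-/- and 1.05 in the Hoxa-/-Hoxd+/- library. Of 24 beta-defensin genes 1 was higher (4.17%) and 3 lower (12.5%). Adam7, a surface protein gene of the epididymal epithelium, stood at 3.18 in the Hoxa-/- and 3.23 in the Hoxa-/-Hoxd+/- library relative to WT, and Rnase9, an epididymal ribonuclease-like gene, at 5.07 and 5.08. The 2 libraries held Adam7 and Rnase9, picked after their values were seen, above WT by nearly the same amount. The list medians lay further apart. Crisp4, a cysteine-rich secretory protein gene of the epididymis, was the 1 higher secretory gene, at 1.5, and among the lower ones Spag11b was at -1.34 and Lcn12, a lipocalin gene, at -1.22.

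Of the 1071 higher genes, 867 stood at least 1 log2 unit above WT in the Hoxa-/-Hoxd+/- library, 461 in the Hoxa-/- library too, and 156 stood at least 1 below WT in the Hoxa-/- library. Among the 461 the difference between the compared libraries had quartiles of 2.13, 2.83 and 3.23. In 397 (37.1%) only the Hoxa-/-Hoxd+/- library of the compared pair lay above the range of the WT, Hoxd-/- and Hoxa+/-Hoxd-/- libraries by 1 log2 unit or more, and the Hoxa-/- library did not lie below it by as much. In 79 (7.38%) only the Hoxa-/- library lay outside, on the low side, and in 4 both did. The other 591 (55.2%), the largest class, met none of these conditions. This class also holds genes for which both compared libraries lay above the range by that much, such as Mael and Tekt1. All these counts use the library values by which the genes were taken, so they only describe the members. The shares over all measured genes were not computed.

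Gene families with many higher members were picked after their values had been seen, so their counts are a description and support nothing, and 9.6% of all genes were higher and 2.61% lower. Of 32 Adam metalloprotease genes with differing values, many of which act on the sperm surface, 16 were higher and 0 lower. Of 19 Spata genes, named for spermatogenesis, 10 were higher and 0 lower, and of 13 Speer genes 11 and 0. Among 7 Catsper genes, which encode the sperm calcium channel, 5 were higher and 0 lower, and among 6 Tssk genes, which encode testis serine kinases, 5 and 0. Of 16 Akap genes, which anchor protein kinase A in many tissues, the 3 higher members were Akap3, Akap4 and Akap14, the first pair being parts of the sperm fibrous sheath. Of 137 Ccdc genes, a mixed family named for coiled coils, 34 were higher and 2 lower. Members of the Speer and Adam families are close copies of each other, so reads may be shared between them and single members are uncertain.

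Motile cilia genes overlap with those of the sperm flagellum, since both are built on the same axoneme. Of 23 listed genes, 15 were higher and 1 lower, beside 9.6% higher and 2.61% lower over all genes. The median was 1.57, or 1.75 with floor genes at 3 reads. Tekt1, which encodes a filament protein of axonemal microtubules, had 1 normalised read in WT, 27.6 in the Hoxa-/-, 1 in the Hoxd-/-, 221 in the Hoxa-/-Hoxd+/- and 1.29 in the Hoxa+/-Hoxd-/- vas deferens and 66.2 in the epididymis. The Hoxa-/-Hoxd+/- level rested on 250 reads and the Hoxa-/- level on 30, a difference of 3.01 with a counting interval of 2.45 to 3.60. The central apparatus gene Hydin also differed by 3.01, the dynein assembly gene Lrrc6 by 2.85 and the outer dynein arm gene Dnaic2 by 2.76. Foxj1, the master regulator of motile ciliogenesis, stood at 0.91 in the Hoxa-/-, 2.85 in the Hoxa-/-Hoxd+/- and 1.09 in the epididymis relative to WT. Not all of the higher cilia genes were higher in the WT epididymis. The dynein intermediate chain gene Dnaic1 differed by 2.10 but stood at -1.12 in the epididymis, and Ccdc113 differed by 2.54 with -1.47 in the epididymis. Of 15 axonemal dynein heavy chain genes (Dnahc), a family picked after its values had been seen, 9 were higher and 1 lower.

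Some of the largest differences were of genes at the floor in the Hoxa-/- library and at or near it in the other vasa deferentia. The sialyltransferase gene St6galnac1 had 85.0 normalised reads in the Hoxa-/-Hoxd+/- library, 1 in each of the other vasa deferentia and 3.38 in the epididymis. It was at least 30.8-fold higher than in the Hoxa-/- library. Spam1, the gene of the sperm head hyaluronidase, had 29.2 normalised reads in the Hoxa-/-Hoxd+/- library, 1 in each of the other vasa deferentia and 10.8 in the epididymis, which was at least 10.6-fold higher. Both genes were thus at the floor of the scale in 4 of 5 vasa deferentia. Wdr63, which encodes a dynein-associated protein of axonemes, had 1, 1, 1.96, 51.6, 1 and 12.2 normalised reads in WT, Hoxa-/-, Hoxd-/-, Hoxa-/-Hoxd+/-, Hoxa+/-Hoxd-/- and epididymis, and was at least 18.7-fold higher. Apobec4, of the cytidine deaminase family, was at least 10.9-fold higher and Adam25, a testis metalloprotease gene, at least 9.01-fold. Fam71e2 had 2.11, 1, 4.89, 57.7, 1 and 85.1 normalised reads in WT, Hoxa-/-, Hoxd-/-, Hoxa-/-Hoxd+/-, Hoxa+/-Hoxd-/- and epididymis, and was at least 20.9-fold higher. Ccdc70 had 1.41, 1, 1, 46.2, 2.59 and 60.8 in that order, and was at least 16.7-fold higher. Both had their highest level in the epididymis. Ccdc54 rested on 2 reads in the Hoxa-/- and 59 in the Hoxa-/-Hoxd+/- library, and its interval ran from 2.91 to 7.90.

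Promoters of higher genes were searched for the cyclic AMP response element TGACGTCA, the site through which CREM is known to act on spermatid genes, in the 250 bases before the first listed start of each gene (RefSeq promoters, GRCm38.p6). The element is its own reverse complement, and its 5-base part TGACG was searched on both strands and lies within it. TGACGTCA was in 1.62% of the 27025 promoters of the table, in 2.64% of the 11796 found for measured genes, in 17 of 796 promoters of higher genes (2.14%) and in 2 of 142 of lower genes (1.41%). TGACG was in 17.9% of all promoters, 25.2% of those of measured genes and 15.3% of those of higher genes. In the spermatid list 2 of 42 promoters held the element and in the meiotic list 0 of 24. A promoter was found for 53 of the named higher genes and 4 of these held the element. These were Wdr63, Spag6, the hedgehog-binding protein gene Hhip and the lipid droplet lipase gene Pnpla3, of which the first pair, both axoneme genes, are shown as examples. Wdr63 lies on the minus strand at chr3:146108167-146108226, with the element 164 to 157 bases before the start, and Spag6, a central apparatus gene with a close paralog, on the minus strand at chr16:16829364-16829423, with the element 9 to 2 bases before it. Capitals mark the element, and a match is a description of letters, not a bound site.
Wdr63: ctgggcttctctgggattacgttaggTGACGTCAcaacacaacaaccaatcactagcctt
Spag6: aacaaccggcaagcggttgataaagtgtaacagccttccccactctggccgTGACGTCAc

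A smaller group of higher genes did not pass the threshold in the epididymis. The WT epididymis was not at least 2-fold above the WT vas deferens for 313 of the 1071. Serpina3b, a serine protease inhibitor gene, stood at 0.74 in the Hoxa-/-, 6.0 in the Hoxa-/-Hoxd+/-, 1.19 in the Hoxd-/- and 6.77 in the Hoxa+/-Hoxd-/- vas deferens relative to WT, and at -0.11 in the epididymis. Both compound genotypes were far above the other libraries. The gel-forming mucin gene Muc5b differed by 2.81. In other genes the Hoxa-/- library was the low one. Fam151a stood at -6.90 in the Hoxa-/- and -3.89 in the Hoxa-/-Hoxd+/- library, and the water channel gene Aqp2 at -2.99 and -0.55. For Aqp2 the Hoxa-/-Hoxd+/- library lay close to the Hoxd-/- at -0.29 and the Hoxa+/-Hoxd-/- at -0.37.

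Lists of matrix, nerve and fat genes had shares of higher members not far from the 9.6% over all genes. Of 50 collagen and matrix genes 7 were higher (14%) and 3 lower, of 30 genes of neurons, Schwann cells and neuroendocrine cells 5 (16.7%) and 1, and of 20 adipocyte genes 2 (10%) and 0, with medians of 0.47, 0.01 and 0.55. Single members differed by more. Col2a1, the cartilage fibril collagen gene, had 6.45 normalised reads in the Hoxa-/- and 25.6 in the Hoxa-/-Hoxd+/- library, from 7 and 29 reads, with an interval of 0.77 to 3.43 around a difference of 2.0. The matrix gene Comp differed by 2.42, the neurofilament gene Nefm by 3.40 and the glial gene S100b by 1.9.

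Among the named genes the largest difference in each direction came from neighbours that share sequence. Mettl7a2 differed by 7.71 and the read-through transcript Mettl7a2-Higd1c by -7.58. Their summed levels were 178 normalised reads in WT, 194 in the Hoxa-/-, 176 in the Hoxd-/-, 208 in the Hoxa-/-Hoxd+/- and 159 in the Hoxa+/-Hoxd-/- vas deferens and 186 in the epididymis. The sums differed little while each library with 1 read for one gene had its reads under the other, so both differences are uncertain as changes in expression. Over all measured genes the largest difference was 11.67, of BC018473, a transcript known only as a cDNA sequence and named here after its value was seen.

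The 231 lower genes were fewer and their differences smaller. Serpinb1c, an intracellular serine protease inhibitor gene, stood at 1.22 in the Hoxa-/-, -3.44 in the Hoxa-/-Hoxd+/-, -3.55 in the Hoxd-/- and -4.88 in the Hoxa+/-Hoxd-/- vas deferens relative to WT and at -0.66 in the epididymis. The Hoxa-/-Hoxd+/- library thus stood with the Hoxd-/- libraries, and the difference was -4.65. Serpinb9c, of the same clade, had 5.28 normalised reads in WT, 21.9 in the Hoxa-/-, 7.83 in the Hoxd-/-, 1 in both compound libraries and 1.35 in the epididymis, and was at least 8.27-fold lower in the Hoxa-/-Hoxd+/- than in the Hoxa-/- library. Serpin genes of this clade are close copies, so single members are uncertain.

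Ptprz1, a receptor tyrosine phosphatase gene, stood at -3.60 in the Hoxa-/- and -6.22 in the Hoxa-/-Hoxd+/- library relative to WT, at 1.17 in the Hoxd-/- and 0.62 in the Hoxa+/-Hoxd-/- library and at -6.89 in the epididymis. The water and glycerol channel gene Aqp3 stood at -1.67, -4.37, -1.24, -2.36 and -3.77 in the order Hoxa-/-, Hoxa-/-Hoxd+/-, Hoxd-/-, Hoxa+/-Hoxd-/- and epididymis. In both genes the Hoxa-/-Hoxd+/- library was the lowest vas deferens and the Hoxa-/- library was below WT as well. Wisp2, a gene of a secreted matricellular protein, stood at -1.46 and -3.58 in the 2 compared libraries, and Spink14, a protease inhibitor gene, at -0.62 and -3.23. The collagenase gene Mmp8 had its high value in the Hoxa-/- library, at 4.0 against 1.17, and the beta-defensin gene Defb39 likewise at 3.19 against 1.05. Both were higher still in the epididymis, at 5.69 and 6.78. Of the 231 genes, the Hoxa-/-Hoxd+/- library alone lay outside the other vasa deferentia in 54 (23.4%) and the Hoxa-/- library alone in 47 (20.3%). Both counts use the values by which the genes were taken, and the shares over all measured genes were not computed.

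**Figure D3:**
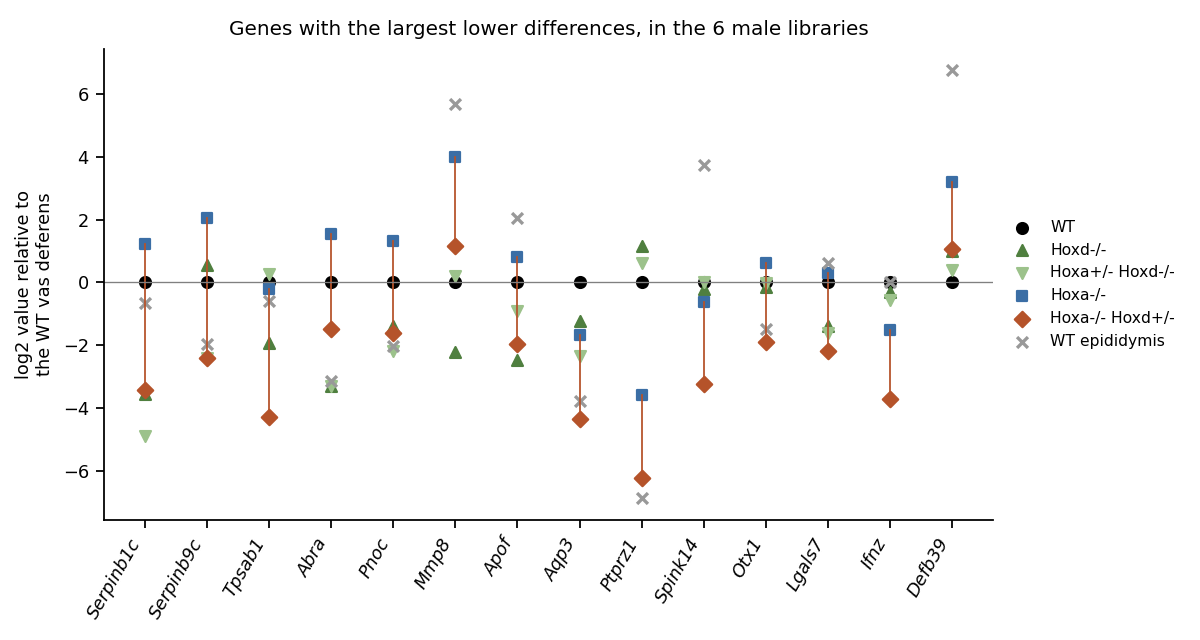
The named genes with the largest lower differences, as log2 difference from the WT vas deferens, 1 symbol per male library, with a line joining the Hoxa-/- (blue squares) and Hoxa-/-Hoxd+/- (orange diamonds) values. Serpinb1c lies at 1.22 in the Hoxa-/- and -3.44 in the Hoxa-/-Hoxd+/- library, and Defb39 at 3.19 and 1.05.

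Products of the accessory glands were on the lower side as a list. Of 20 seminal vesicle and prostate secretory genes 0 were higher and 9 lower, beside 9.6% higher and 2.61% lower over all genes. The median was -0.66, or -0.79 with floor genes at 3 reads. After the minimum level 4 of 13 were lower, beside 1.46% of all measured genes. That is not a like comparison, since 12755 measured genes had an unread level and faced no minimum. Svs3b, a seminal vesicle secretory protein gene, stood at 3.00 in the Hoxa-/-, 1.15 in the Hoxa-/-Hoxd+/-, -2.0 in the Hoxd-/- and -0.41 in the Hoxa+/-Hoxd-/- vas deferens and at -0.94 in the epididymis. Its neighbour Svs3a differed by -1.37 and Svs4 by -0.45. Sbp, the spermine-binding protein gene of the prostate, had 12.9 normalised reads in the Hoxa-/- library and 1 in the other 5. Pbsn, the probasin gene of the prostate, had 513 in WT, 9.03 in the Hoxa-/- and at most 2.59 in the other libraries. The 8 genes of the list whose level could be read summed to 746 normalised reads in WT, 141 in the Hoxa-/-, 9.93 in the Hoxd-/-, 78.5 in the Hoxa-/-Hoxd+/- and 26.3 in the Hoxa+/-Hoxd-/- vas deferens, and to 164 in the epididymis. What part tissue of the accessory glands had in these values was not tested.

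Tpsab1, a mast cell tryptase gene, stood at -0.22 in the Hoxa-/-, -4.28 in the Hoxa-/-Hoxd+/-, -1.94 in the Hoxd-/- and 0.27 in the Hoxa+/-Hoxd-/- vas deferens and at -0.60 in the epididymis. The tryptase genes are close copies, so a single one is uncertain. Other mast cell genes differed by less: Tpsb2 by -1.09, the carboxypeptidase gene Cpa3 by -0.80 and the chymase genes Cma1 and Mcpt4 by -0.71 and -0.64. Of 18 genes of eosinophils and mast cells 0 were higher and 3 lower, with a median of -0.36. Macrophage, interferon-induced, class II presentation, endothelium, cell cycle and retinoic acid genes had 0 higher and 0 lower members in each list. Of 25 squamous epithelium genes 3 were higher and 5 lower, with Sprr2a1, a cornified envelope gene, at -1.91 and Lypd3 at -1.30. Of 52 Wnt pathway genes 0 were higher and 3 lower (5.77%), and of 43 BMP and TGF-beta pathway genes 4 (9.30%) and 1 (2.33%), the latter close to the 9.6% and 2.61% over all genes.

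**Figure D4:**
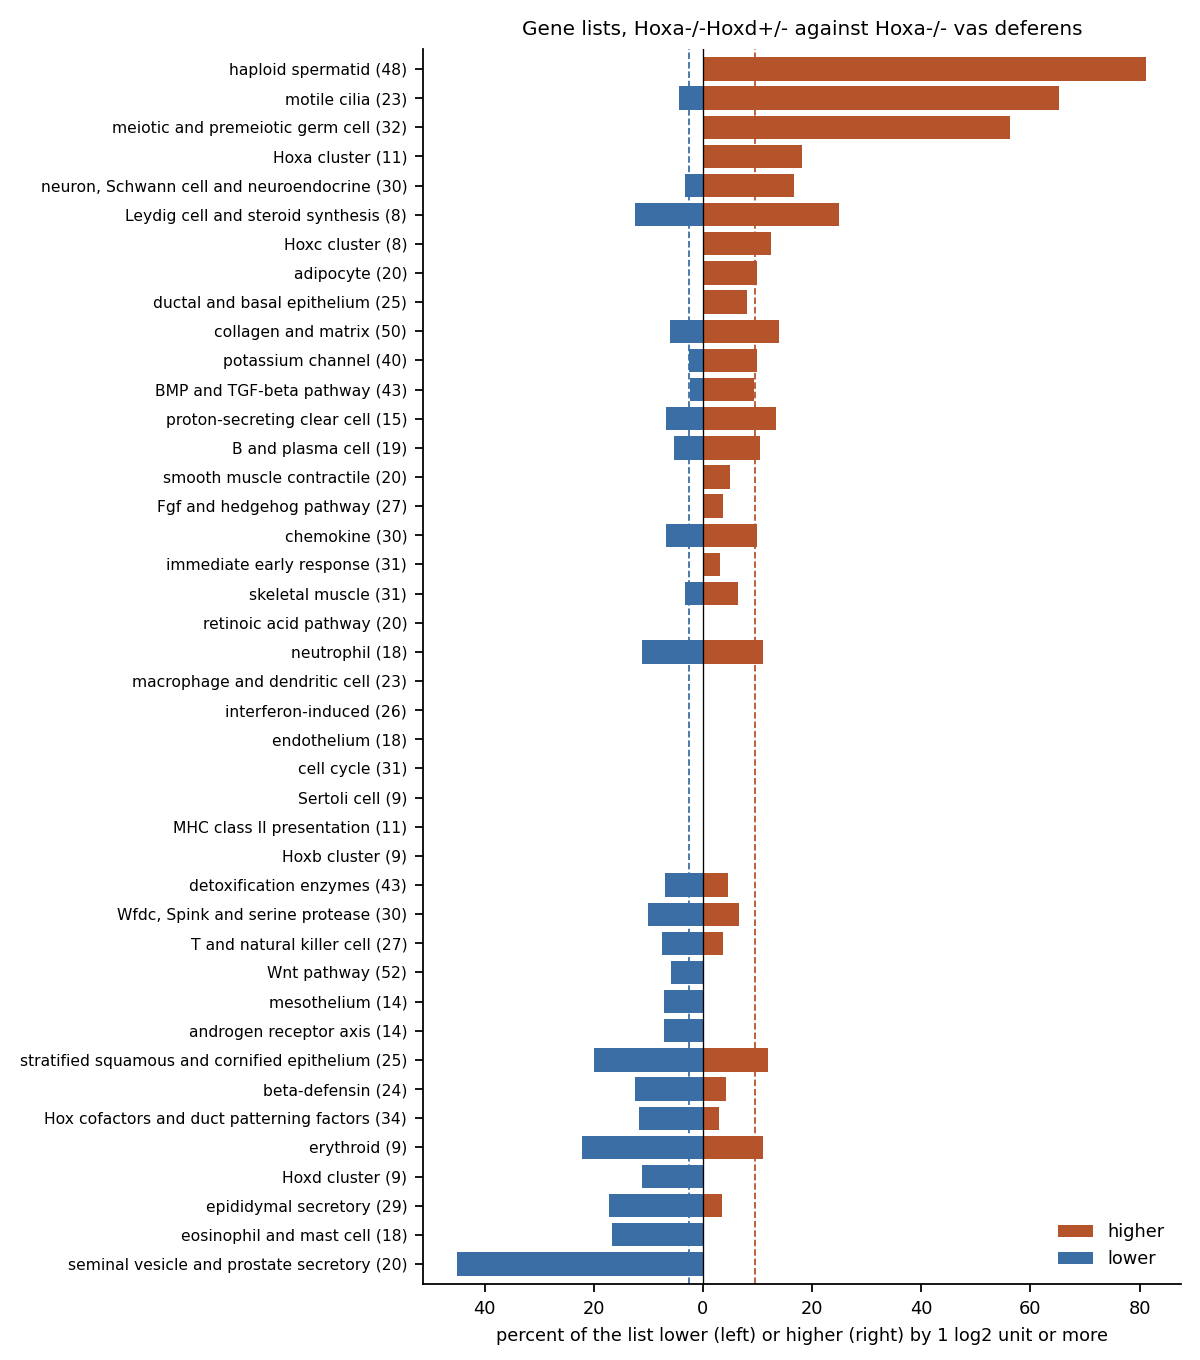
Percent of each gene list that was lower (blue, to the left) or higher (orange, to the right) by 1 log2 unit or more in the Hoxa-/-Hoxd+/- than in the Hoxa-/- vas deferens, with no minimum level, the number of genes with differing values in parentheses and dashed lines at the percent over all genes. The spermatid, motile cilia and meiotic lists have 39 of 48, 15 of 23 and 18 of 32 genes higher, and the seminal vesicle and prostate list has 9 of 20 lower.

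The Hoxd genes of the block that differs between the genotypes were not uniformly lower. Hoxd9 stood at 0.67 in the Hoxa-/-, -0.33 in the Hoxa-/-Hoxd+/-, -1.30 in the Hoxd-/- and -1.20 in the Hoxa+/-Hoxd-/- vas deferens relative to WT and at 0.53 in the epididymis, so it differed by -1.01. Hoxd11 stood at -0.89, -1.45, -2.48, -1.17 and -1.68 in the same order, a difference of -0.56. Hoxd10 stood at -0.39, -0.43, -0.28, 0.50 and -0.50, and differed by -0.04. Only Hoxd9 of these 3 passed 1 log2 unit, just beyond the threshold, and a transcript that is still made from a mutant allele would be counted like any other. On the Hoxa side, where both genotypes are -/-, Hoxa9 differed by -0.27, Hoxa10 by -0.06 and Hoxa11 by -0.90, with Hoxa11 at -2.30 and -3.21 relative to WT. Of 9 Hoxd cluster genes 0 were higher and 1 lower, of 9 Hoxb genes 0 and 0, and of 8 Hoxc genes 1 and 0, Hoxc11 at 1.32. Of 11 Hoxa cluster genes 2 were higher, Hoxa4 by 2.05 and Hoxa2 by 1.67, both below the minimum level. These cluster counts are to be read beside 9.6% higher and 2.61% lower over all genes, and lists this short cannot be told from those shares.

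**Figure D5:**
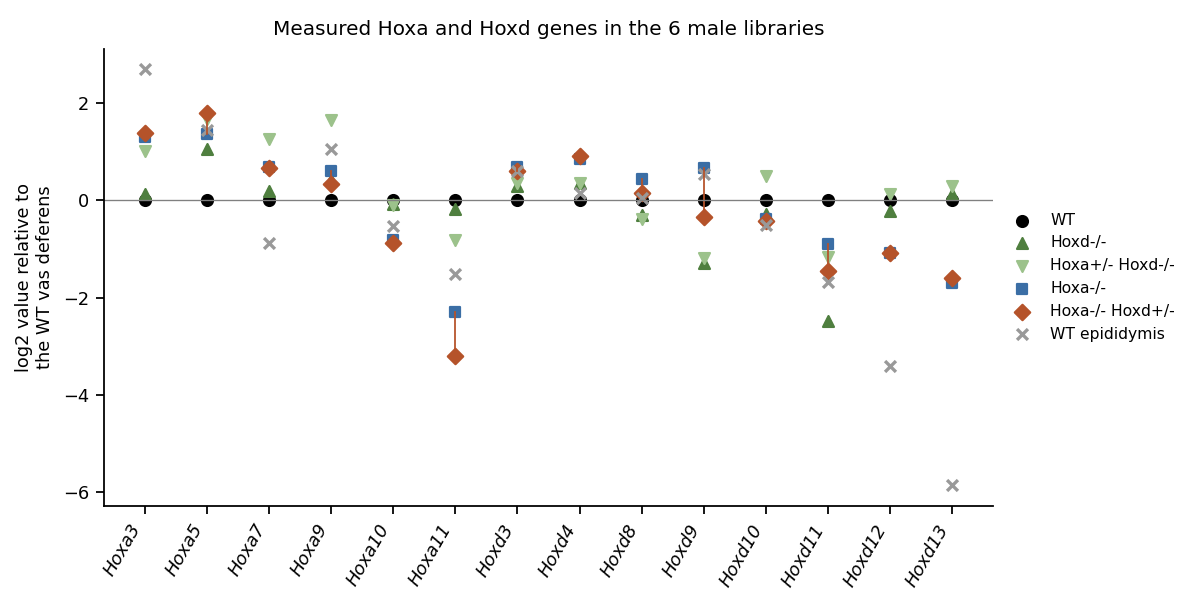
Measured Hoxa and Hoxd genes, as log2 difference from the WT vas deferens, 1 symbol per male library, with a line joining the Hoxa-/- (blue squares) and Hoxa-/-Hoxd+/- (orange diamonds) values. Hoxd9 lies at 0.67 and -0.33 in these 2 libraries and Hoxa11 at -2.30 and -3.21.

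The mirror-image comparison, Hoxa+/-Hoxd-/- minus Hoxd-/- vas deferens, adds the loss of a Hoxa copy to a Hoxd-/- background and shares no library with the one described, but its 2 libraries came from different runs. In it 7.09% of the measured genes were at least 2-fold higher and 3.43% lower. Of the 1071 higher genes 277 (25.9%) were also higher in it and 72 (6.72%) lower. Of the 231 lower genes 29 (12.6%) were lower in it and 43 (18.6%) higher. In both gene sets the shares of both directions were above those over all measured genes. These shares are not a like comparison. Of the 1071 genes, 477 reached the minimum level only through the Hoxa-/-Hoxd+/- library, and no minimum was asked of the libraries of the mirror-image comparison. For the spermatid list the 2 libraries stood at -0.45 and 0.27 relative to WT.

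In the uterus the same pair of genotypes was compared between lanes 1 and 2 of run 134. Of the 14390 genes measured in both tissues 4.52% were higher and 3.12% lower in the Hoxa-/-Hoxd+/- uterus. Of the 452 higher vas deferens genes measured there, 73 (16.2%) were also higher and 45 (9.96%) lower, with a median of 0.0920 against 0.0194 over all genes. Of the 147 lower ones 29 (19.7%) were lower and 19 (12.9%) higher. Counted from the uterus, 73 of its 651 higher genes (11.2%) and 29 of its 449 lower genes (6.46%) shared the direction in the vas deferens. With no minimum level, 3 of 42 spermatid genes with differing values were higher and 3 lower in the uterus. Of 29 meiotic genes 3 were higher and 4 lower. Over all genes counted in this way, 1428 of 18258 were higher and 956 lower. Serpinb1c differed by -5.46 and Lgals7, a galectin gene of stratified epithelia, by -2.24 in the uterus, beside -4.65 and -2.48 in the vas deferens.

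The higher genes were spread over the chromosomes. Chromosome 14 had the largest share, with 68 of 568 measured genes higher (12.0%), and the X chromosome had 61 of 572 (10.7%). Among genes with an assigned name the shares were 30 of 457 (6.56%) and 26 of 459 (5.66%), beside 706 of 13363 (5.28%) on all chromosomes.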

How the data were processed

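Per the labels' protocols, RNA was isolated from fresh tissue (Qiagen RNeasy Mini) and sequenced as Illumina TruSeq libraries. Alignment was with TopHat to mm9, per the submitters' processing notes. Sources used here do not give the counting tool, annotation or normalisation. The deposited values are log2 values, which the authors' files hold relative to the median of each gene over the 6 libraries of a sex. The floor of 1 normalised read was inferred from these values. A shift common to most genes of a library (at most 0.0110 in male and 0.0230 in female libraries) was removed. A level was read only where a gene's values fell on whole reads or on the floor, and 12755 measured genes kept an unread level. One read was worth 0.921 normalised reads in the Hoxa-/- and 0.884 in the Hoxa-/-Hoxd+/- vas deferens. The members and the 42 gene lists (1039 of 1052 genes matched) were chosen with earlier results of these data known. Named genes were, without predicted transcripts and the 233 shared symbols, the 15 highest and 15 lowest differences, 5 on each side for each compared library lying outside the other vasa deferentia, measured Hoxa and Hoxd genes and up to 5 of each list. Other genes were picked after their values were seen. Alternatives were other minimum levels, thresholds, centring and pseudocounts. The reading of levels was tested on simulated data (Python 3.11.15, numpy 2.4.6, pandas 2.3.3, scipy 1.17.1, matplotlib 3.10.9).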

Additional observations from a re-analysis of the deposited data

Results flagged for a closer look

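A few genes differed in opposite directions between the Hoxa-/-Hoxd+/- and Hoxa-/- libraries of the 2 tissues, by at least 1 log2 unit each way. Each tissue has 1 library per genotype, so the difference between tissues was not tested. St6galnac1 was at 6.42 in the vas deferens, where the Hoxa-/- library was at the floor, and at -1.35 in the uterus. The epithelial chemokine gene Cxcl15 was at 1.29 and -1.23, and the carbonic anhydrase gene Car12 at 1.11 and -1.63. Ptprz1 was at -2.62 in the vas deferens and 1.64 in the uterus.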

How the results depend on the processing

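No paired analysis was possible because each genotype has 1 pooled library and the labels give no replicate numbers. With no minimum level 1859 genes were higher and 505 lower, against 1071 and 231. A minimum of 100 normalised reads gave 597 higher genes, with 20 higher in the spermatid and 9 in the meiotic list. A threshold of 2 log2 units gave 639 higher and 35 lower genes, which moved the higher share of the genes past the threshold from 82.3% to 94.8%. Asking for 20 normalised reads in both libraries, an alternative chosen after seeing the data, gave 594 higher genes. The remaining alternatives for these counts (values as deposited, centring on the median, a pseudocount of 5, and the minimum taken over all 6 or the 4 other male libraries) stayed within 1.5 times. Of the 244 named genes, 224 moved little with the pseudocount and 20 more. Genes with an unread level kept their values under it, and the same addition to both libraries cannot reverse a direction. The pseudocount is therefore no check of direction, nor of genes with an unread level. Of 126 list counts and medians, 111 stayed the same by this measure at a minimum of 100 normalised reads and 98 with no minimum, and 15 and 28 moved; the cause was not tested. Depth limits genes near the floor, where only a bound on the fold could be given. Alternatives for replicates were not run, since there are none.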
